A study of Mus musculus with 35 samples.

Results

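The genes described here are 10 core components of the PIWI-interacting RNA (piRNA) machinery in mouse male germ cells: the PIWI proteins Piwil1, Piwil2 and Piwil4, the processing factors Mov10l1, Pld6, Pnldc1 and Henmt1, the mitochondrial proteins Asz1 and Gpat2, and the PIWI cofactor Gtsf1. They were chosen by name from the 24411 genes of the count tables, and all 10 were listed. RNA sequencing had been done on spermatocytes (Spc), round spermatids (RS) and isolated chromatoid bodies (CB), the large perinuclear RNA granules of round spermatids. Conditional knockout mice (Smg6-cKO) carried Smg6(fx/fx) with the Ngn3Cre transgene, in which loxP sites flank an exon of Smg6, the endonuclease of nonsense-mediated decay. Controls were littermates without the transgene, either Smg6(fx/fx) or Smg6(fx/wt), so floxed alleles were present in every control. All animals were adult and of mixed C57Bl/6J and SV129 background. The Ngn3 promoter drives Cre from spermatogonia onward, so both cell types of a cKO animal descended from cells that had expressed Cre. There were 3 cKO and 3 control libraries each of spermatocytes and round spermatids, from poly(A) RNA of cells enriched by sedimentation, and 3 cKO and 4 control libraries of chromatoid bodies, from total RNA of DDX4 immunoaffinity preparations pooled from several mice. The numbers on the chromatoid body columns of the count table did not match those of the sample labels, so these libraries are given without numbers, in ascending order.

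piRNAs are small RNAs that guide PIWI proteins to transposon and messenger transcripts in the germ line. Long precursor transcripts are brought to the mitochondrial surface, unwound by the helicase MOV10L1, cleaved by PLD6, loaded on a PIWI protein, shortened at the 3′ end by the exonuclease PNLDC1 and methylated there by HENMT1. PIWIL1 and PIWIL2 act in meiotic and haploid cells of the adult testis, PIWIL4 in fetal germ cells, and the transcription factor A-MYB, encoded by Mybl1, drives many of these genes at the pachytene stage.

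In GRCm38 the members lie on 9 chromosomes, and Mov10l1 and Gtsf1 share chromosome 15. Piwil1 occupies chr5:128702524-128755474 on the plus strand, Piwil2 chr14:70372477-70429383 on the minus strand and Piwil4 chr9:14696230-14740733 on the minus strand. Mov10l1 spans chr15:88982909-89055152 (plus), Pld6 chr11:59783897-59787645 (minus), Pnldc1 chr17:12888729-12910230 (minus) and Henmt1 chr3:108939873-108960774 (plus). Asz1 lies at chr6:18050964-18109061 (minus), Gpat2 at chr2:127425199-127436092 (plus) and Gtsf1 at chr15:103402405-103430470 (minus). No annotated exon of another gene overlapped a member's exons on the same strand. On the opposite strand, exons overlapped by 392 bases for Henmt1 (Gm9857), 144 for Pnldc1 (AL589878.1) and 137 for Piwil4 (Gm10706), and the genes were counted by strand.

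Because most members moved together while Gtsf1 moved the other way, the sequences before their transcription starts are shown for Piwil1, Mov10l1 and Gtsf1. They were taken from RefSeq promoter windows of GRCm38.p6, which matched 8 of the 10 members in 10 windows. Each stretch reads 5′ to 3′ on the gene's strand, lies upstream of the RefSeq start and leaves out annotated exons, except for the last bases of a motif match. The stretches are chr5:128736030-128736177 for Piwil1 (plus), chr15:88982744-88982908 for Mov10l1 (plus) and chr15:103430471-103430677 for Gtsf1 (minus). Capitals mark GCAGTT, a core of the A-MYB binding motif, searched on both strands, AACTGC being its reverse complement.
Piwil1: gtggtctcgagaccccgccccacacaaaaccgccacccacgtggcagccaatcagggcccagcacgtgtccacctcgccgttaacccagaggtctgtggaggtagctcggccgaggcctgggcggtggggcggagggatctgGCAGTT
Mov10l1: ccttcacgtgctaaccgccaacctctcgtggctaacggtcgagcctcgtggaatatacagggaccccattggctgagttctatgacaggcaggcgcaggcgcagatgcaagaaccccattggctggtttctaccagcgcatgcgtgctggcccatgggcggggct
Gtsf1: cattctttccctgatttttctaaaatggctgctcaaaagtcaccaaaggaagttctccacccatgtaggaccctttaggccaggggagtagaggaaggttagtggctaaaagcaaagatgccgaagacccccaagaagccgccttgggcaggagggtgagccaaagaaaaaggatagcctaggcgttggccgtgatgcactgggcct
Within the 250 bases before each start, the motif was found in 1 of the 10 member windows, that of Piwil1, where it began 74 bases before the start. Of all 32851 windows of this length, 11.1% held it, so the members held this exact sequence about as often as promoters in general, and a match is a description of letters only. No other form of an A-MYB site was searched for, so these counts do not tell whether the windows hold one.

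Values below are in CPM, the read count of a gene relative to the depth of its library, after TMM scaling within spermatocytes, within round spermatids or within chromatoid bodies. A member passed where its adjusted p was at most 0.05, from the quasi-likelihood F test of edgeR with the Benjamini-Hochberg correction taken over every gene and transposable element tested. Fold changes are log2 values with their standard error (SE).

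The deposited tables held 38129415 to 49940226 counts per spermatocyte or round spermatid library and 3965541 to 16699210 per chromatoid body library. Smg6 itself did not pass the test in any genotype comparison, with 170 to 181 CPM in cKO round spermatids against 123 to 201 CPM; counts over the whole gene include the exons outside the deleted part and do not check the deletion. All 10 late spermatid markers (Prm1, Tnp1 and others) were lower in cKO in each of the 3 fractions. In round spermatids their summed level was 1827 to 1899 CPM in cKO libraries, against 26450 to 34889 CPM in controls, in spermatocytes 450 to 1470 against 4007 to 8337 CPM, and in chromatoid bodies 347 to 391 against 1653 to 3606 CPM. The 10 round spermatid markers were all lower in cKO round spermatids, at 1524 to 1794 CPM against 4815 to 5145 CPM. In the same libraries the 10 spermatocyte markers (Sycp1, Sycp3 and others) summed to 1028 to 1047 CPM in cKO and 793 to 893 CPM in control, with 6 higher and 2 lower. Spermatogonial markers there summed to 69.9 to 111 against 37.3 to 47.0 CPM, macrophage markers to 121 to 193 against 17.6 to 24.5 CPM, Sertoli cell markers to 59.1 to 176 against 40.0 to 50.1 CPM, Leydig cell markers to 26.2 to 276 against 6.98 to 7.24 CPM, and erythroid markers to 57.5 to 218 against 18.4 to 21.4 CPM. In spermatocytes the Sertoli cell markers summed to 147 to 218 CPM in cKO and 279 to 743 CPM in control, and the Leydig cell markers to 537 to 1098 against 119 to 376 CPM. There the spermatocyte markers summed to 1817 to 2063 CPM in cKO against 1658 to 1773 CPM, the round spermatid markers to 1028 to 1360 against 1442 to 2269 CPM and the erythroid markers to 1.54 to 3.31 against 11.5 to 21.996 CPM, while the macrophage and spermatogonial sums overlapped. Taken singly in spermatocytes, 5 of 6 macrophage markers passed as higher in cKO and 1 as lower, and 1 of 8 spermatogonial markers as higher. Also higher were 2 of 6 Leydig cell and 2 of 10 spermatocyte markers. Lower were 7 of 8 Sertoli cell, 1 of 10 round spermatid and 1 of 4 erythroid markers. Among all the lists, the only marker at 0 counts in every library of a group was Fshr, in cKO chromatoid bodies. The part of these cell mixtures in the members' differences was not tested, and in bulk samples fewer cells of a type and less RNA per cell cannot be told apart. The samples of a group are separate preparations, and p-values measure the spread between them.

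In round spermatids, 7 of the 10 members were higher in Smg6-cKO than in control and Gtsf1 was lower. Of everything tested, 38% was higher and 33.3% lower, so the 7 of 10 higher lie above that background and the 1 of 10 lower below it, the former only while certain libraries were kept. Those higher were Piwil1, Piwil4, Mov10l1, Pld6, Pnldc1, Henmt1 and Gpat2, and Piwil2 and Asz1 had positive fold changes that did not pass. The members' median log2 fold change was 0.52, against 0.10 over everything tested. Pnldc1 and Piwil4 were also past a log2 fold change of 1.5, a mark that 15.1% of everything tested passed on the higher side. Under scaling by library size only, which moved the median of everything tested from 0.10 to 0.65, 9 members were higher and Gtsf1 was lower, beside 55.7% and 18% of everything tested; the members' median relative to the overall median was 0.42 under both scalings. That scaling raised the higher share of all calls from 53.3% to 75.6%. The count of 7 rested on single libraries: it was 4 without cKO replicate 1, 3 without control replicate 1, 4 without control replicate 3, and 9 without cKO replicate 2 or 3. In the 3 fits with 3 or 4 members higher, 33.9% to 34.5% of everything tested was higher, so there the members were close to the background.

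**Figure D1:**
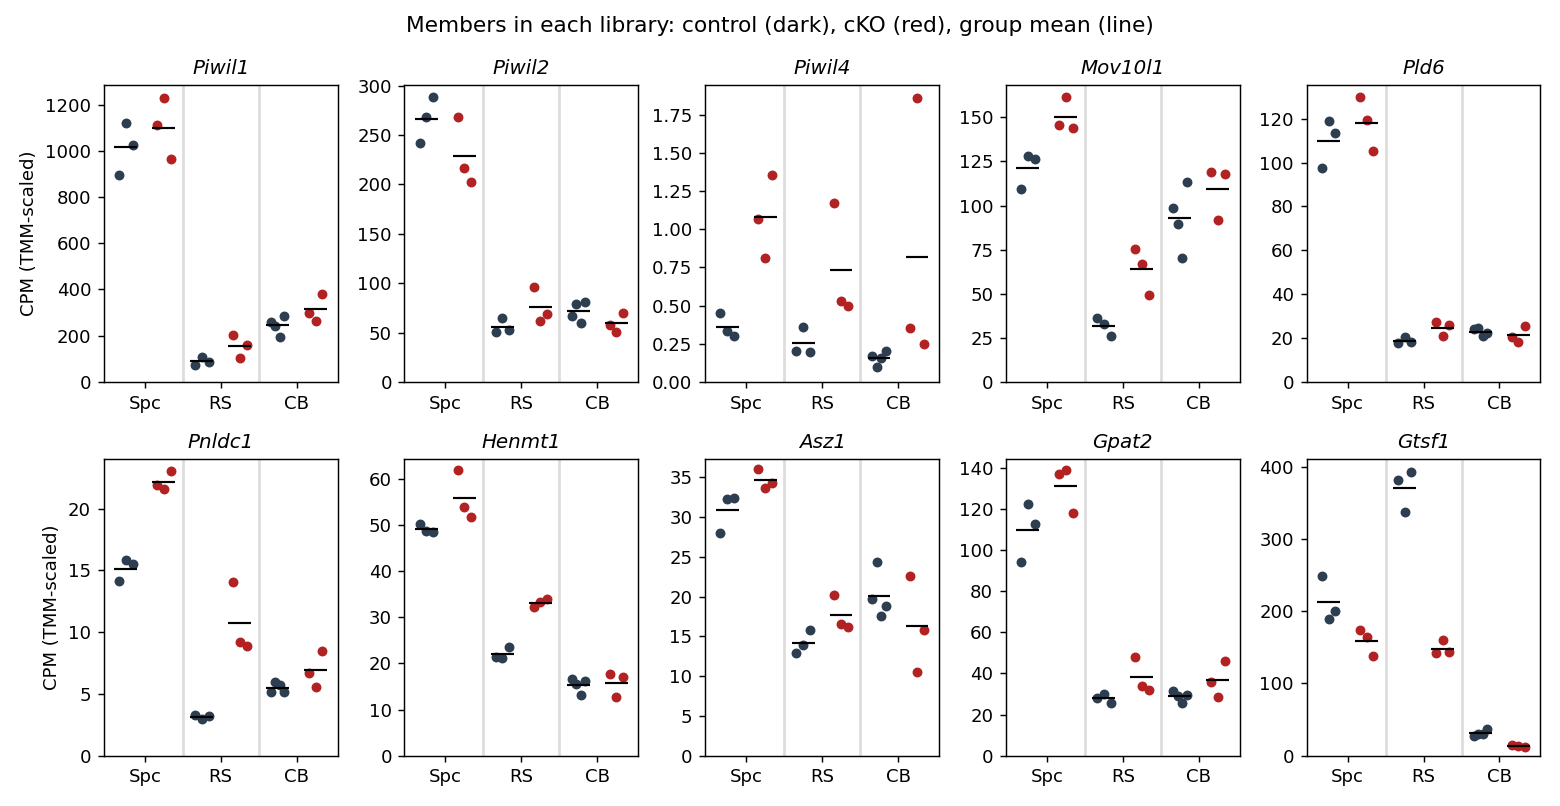
TMM-scaled CPM of each member (vertical axes, each from 0) in every library of spermatocytes (Spc), round spermatids (RS) and chromatoid bodies (CB). Dark points are control libraries, red points cKO libraries and lines group means; Gtsf1 is the member with control round spermatids at the top, 338 to 392 CPM against 141 to 160 CPM in cKO.

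Piwil1 encodes the PIWI protein of pachytene piRNAs. It stood at 201, 106 and 160 CPM in the cKO round spermatids and at 71.3, 110 and 85.9 CPM in the controls. The lowest cKO library lay below the highest control, so the groups overlapped. The log2 fold change was 0.80 (SE 0.24, edgeR adjusted p = 0.015). It did not pass without cKO replicate 1 (0.63, adjusted p = 0.051) or without control replicate 1 (0.66, adjusted p = 0.056).

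Piwil2 encodes the PIWI protein that acts from spermatogonia to round spermatids. Its cKO libraries held 96.3, 61.4 and 69.0 CPM and its controls 50.7, 64.6 and 52.6 CPM. The groups overlapped, and the log2 fold change of 0.43 (SE 0.17) had an edgeR adjusted p of 0.0505, just short of the threshold. It passed with no count filter (adjusted p = 0.043), with transcript counts summed per gene (0.048), with scaling by library size only (0.0015), and without cKO replicate 2 (0.0075), cKO replicate 3 (0.038) or control replicate 2 (0.038).

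Piwil4 was near the floor of detection in adult cells. It had 62, 27 and 28 counts in cKO round spermatids and 8, 13 and 7 in control, or 1.17, 0.528 and 0.500 CPM against 0.205, 0.360 and 0.197 CPM. All cKO libraries were above all controls, with cKO replicate 1 the highest. The log2 fold change was 1.52 (SE 0.48, edgeR adjusted p = 0.020) and did not pass without cKO replicate 1 (1.07, adjusted p = 0.060), without control replicate 1 (1.38, 0.069) or without control replicate 3 (1.37, 0.068).

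Among the processing factors, Pnldc1, the trimmer of piRNA 3′ ends, had the largest fold change of the 10 members. It stood at 14.1, 9.18 and 8.90 CPM in cKO and at 3.30, 2.99 and 3.21 CPM in control round spermatids. The lowest cKO value was well above the highest control value. The log2 fold change was 1.76 (SE 0.21, edgeR adjusted p = 0.00016), a 3.39-fold difference, and it passed with each library left out in turn (1.57 to 1.90).

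Mov10l1, the helicase that feeds precursors into processing, held 75.3, 66.7 and 49.2 CPM in cKO and 36.0, 33.0 and 26.2 CPM in control round spermatids. The groups did not overlap, with a log2 fold change of 1.01 (SE 0.18, edgeR adjusted p = 0.0011). Henmt1, the methyltransferase of mature piRNAs, held 32.1, 33.4 and 33.9 CPM in cKO and 21.3, 21.2 and 23.6 CPM in control. All cKO libraries were above all controls, and its log2 fold change was 0.59 (SE 0.09, edgeR adjusted p = 0.00061). Pld6, the nuclease of the mitochondrial surface, held 27.5, 20.9 and 26.0 CPM in cKO against 17.7, 20.4 and 18.2 CPM. cKO replicate 2 was barely above control replicate 2, and the log2 fold change was 0.40 (SE 0.13, edgeR adjusted p = 0.023). It did not pass without cKO replicate 1 (adjusted p = 0.058), control replicate 1 (0.081) or control replicate 3 (0.076).

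The mitochondrial proteins had small fold changes. Gpat2 held 48.1, 33.9 and 32.1 CPM in cKO and 28.0, 29.8 and 25.6 CPM in control, with cKO replicate 1 apart from the others. Its log2 fold change was 0.45 (SE 0.16, edgeR adjusted p = 0.032) and did not pass when any of the control replicates was left out (adjusted p = 0.078, 0.052 and 0.11). Asz1, a scaffold of piRNA processing at the intermitochondrial cement, held 20.2, 16.5 and 16.2 CPM in cKO and 12.9, 13.9 and 15.8 CPM in control. The cKO values were all above the controls, by a small margin, and the log2 fold change of 0.31 (SE 0.14) had an edgeR adjusted p of 0.071. It passed without cKO replicate 2 (adjusted p = 0.038) or 3 (0.039) and with scaling by library size only (0.87, adjusted p = 0.00066).

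Gtsf1, a zinc-finger partner of PIWI proteins that promotes target cleavage, was the only member lower in cKO round spermatids. It stood at 141, 160 and 143 CPM in cKO and at 381, 338 and 392 CPM in control. The groups were far apart, with the highest cKO library below the lowest control. The log2 fold change was -1.32 (SE 0.08, edgeR adjusted p = 4.0e-06), a 2.5-fold difference. It lay between -1.39 and -1.23 with each library left out and was -0.76 (adjusted p = 1.6e-05) with scaling by library size only.

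**Figure D2:**
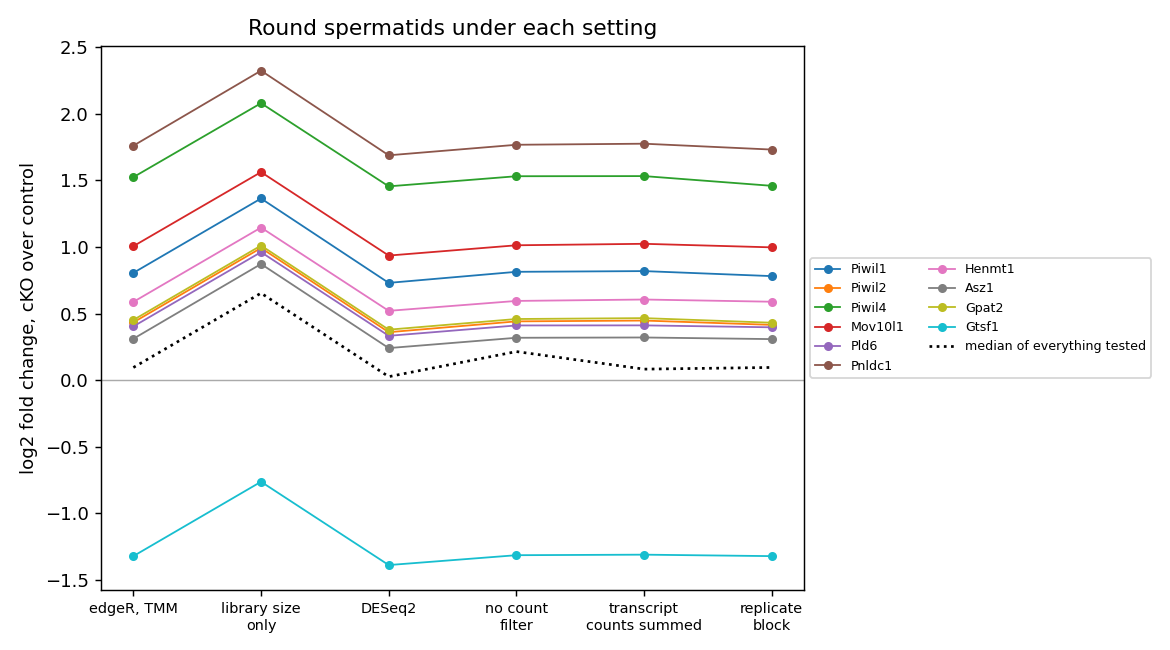
log2 fold change of cKO over control round spermatids (vertical axis) for the 10 members under 6 settings (horizontal axis), 1 line per member, with the median of everything tested dotted. Scaling by library size only moved all lines up together, and Gtsf1 stayed below 0 at every setting, from -1.39 to -0.76.

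In spermatocytes the members were closer between genotypes. There, 3 of the 10 were higher in cKO (Piwil4, Mov10l1 and Pnldc1) and none was lower by edgeR, against 13.3% and 13% of everything tested. At an unadjusted p under 0.05, 1 member was lower, Gtsf1, and DESeq2 also called 1, where 17.2% of everything tested was lower. The members' median log2 fold change was 0.18, against -0.01 over everything tested. None of the 3 was called when cKO replicate 1 or control replicate 3 was left out, where 6.99% and 6.03% of everything tested was still higher.

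Pnldc1 held 21.9, 21.6 and 23.0 CPM in cKO and 14.1, 15.8 and 15.5 CPM in control spermatocytes. The groups were clearly separate, with a log2 fold change of 0.55 (SE 0.12, edgeR adjusted p = 0.017). It did not pass without cKO replicate 1 (adjusted p = 0.051), cKO replicate 3 (0.057) or control replicate 3 (0.063). Mov10l1 held 145, 162 and 144 CPM against 109, 128 and 126 CPM, with a log2 fold change of 0.31 (SE 0.09, edgeR adjusted p = 0.047). The groups did not overlap, but Mov10l1 was not called in any fit that left out a library (adjusted p = 0.066 to 0.13) nor with scaling by library size only (0.055) or no count filter (0.057).

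Piwil4 had 40, 37 and 69 counts in cKO and 18, 17 and 14 in control spermatocytes, or 1.07, 0.813 and 1.36 CPM against 0.450, 0.336 and 0.303 CPM. The log2 fold change was 1.57 (SE 0.33, edgeR adjusted p = 0.015), and it did not pass without cKO replicate 1 (adjusted p = 0.051) or control replicate 3 (0.064). Summed spermatogonial markers in these libraries were 69.1 to 118 CPM in cKO and 59.1 to 71.9 CPM in control. Their part in the Piwil4 difference was not tested.

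Gtsf1 stood at 174, 164 and 138 CPM in cKO and at 249, 189 and 201 CPM in control spermatocytes. All cKO libraries were below all controls, and the log2 fold change of -0.42 (SE 0.13) had an edgeR adjusted p of 0.053. It passed with scaling by library size only (adjusted p = 0.032), with no count filter (0.048), by DESeq2 (0.044) and without control replicate 2 (0.049). Piwil1 held 1110, 1228 and 963 CPM in cKO and 897, 1121 and 1027 CPM in control spermatocytes, overlapping throughout, with a log2 fold change of 0.12 (SE 0.11, edgeR adjusted p = 0.49). Piwil2 had a log2 fold change of -0.22 (SE 0.12, edgeR adjusted p = 0.22), the only other negative value. The other 4 members, Pld6, Henmt1, Asz1 and Gpat2, had log2 fold changes between 0.10 and 0.26 that did not pass.

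The chromatoid body preparations gave 9 members enough counts to test, Piwil4 having 1 to 6 counts per library. By edgeR, 0 of the 9 were higher in cKO and 1, Gtsf1, was lower, against 15.4% and 17.7% of everything tested. At an unadjusted p under 0.05 the count higher was also 0, and DESeq2 called 0, where 16.2% of everything tested was higher. The members' median log2 fold change was 0.05, against 0.01 over everything tested. Scaling by library size only lowered the higher share of all calls from 46.5% to 35.8% and left 0 members higher and 1 lower.

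Gtsf1 stood at 12.3, 13.3 and 14.1 CPM in cKO chromatoid bodies and at 27.9, 30.1, 30.7 and 37.2 CPM in control. The groups were far apart. The log2 fold change was -1.26 (SE 0.19, edgeR adjusted p = 0.00040), and it lay between -1.31 and -1.14 with each library left out. In the same libraries 9 of 10 round spermatid markers were lower, with a summed level of 241 to 275 CPM in cKO against 512 to 686 CPM. The 5 Leydig cell markers tested were higher (29.0 to 285 against 10.01 to 40.1 CPM), as were 3 of 5 spermatogonial markers (25.0 to 82.4 against 14.4 to 21.9 CPM), 2 of 4 macrophage markers (9.15 to 48.8 against 7.46 to 12.9 CPM) and 1 of 4 Sertoli cell markers (14.1 to 47.5 against 14.9 to 18.8 CPM). The Leydig, macrophage and Sertoli cell sums overlapped between genotypes. Their part in the Gtsf1 difference was not tested.

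Piwil1 held 265, 297 and 382 CPM in cKO chromatoid bodies and 196, 241, 259 and 285 CPM in control, with a log2 fold change of 0.36 (SE 0.20, edgeR adjusted p = 0.19). Pnldc1 held 5.58, 6.69 and 8.47 CPM against 5.15, 5.18, 5.75 and 5.94 CPM, and Mov10l1 92.0, 118 and 119 CPM against 70.3, 89.8, 98.8 and 113 CPM. In each of these genes the highest control exceeded the lowest cKO library, and the log2 fold changes were 0.36 (SE 0.24) for Pnldc1 and 0.24 (SE 0.19) for Mov10l1. The remaining members ranged from -0.28 for Asz1 to 0.35 for Gpat2. Henmt1 was at 0.05, and at -0.09 with scaling by library size only.

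**Figure D3:**
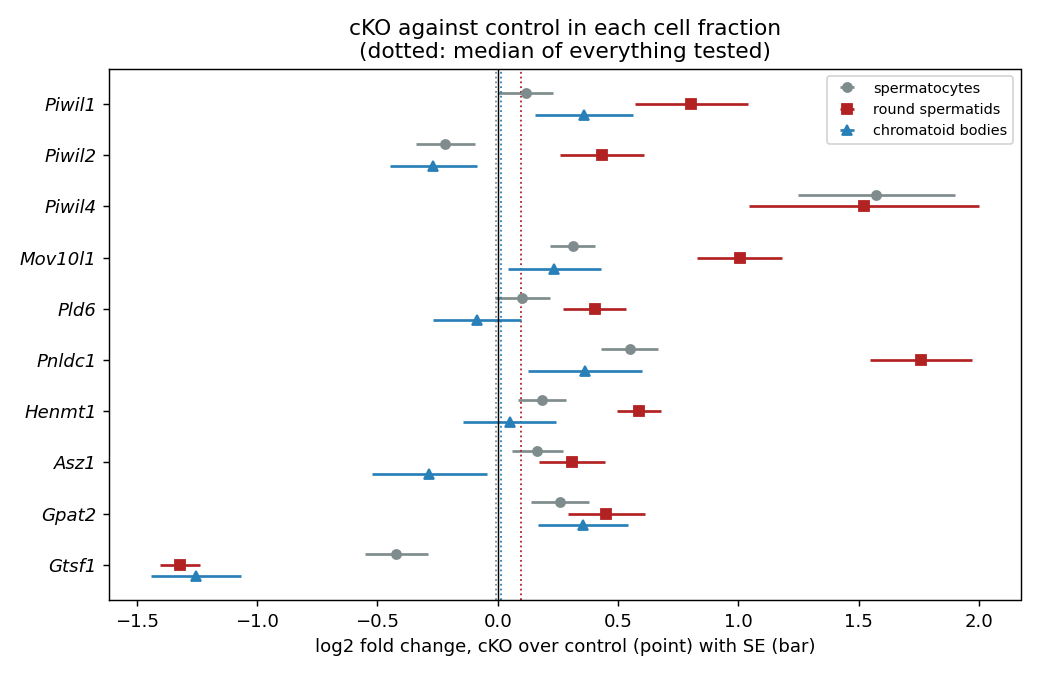
log2 fold change of cKO over control (horizontal axis, bars are SE) for each member in spermatocytes (grey), round spermatids (red) and chromatoid bodies (blue); dotted lines are the medians of everything tested. Pnldc1 has the largest positive value in round spermatids (1.76), and Gtsf1 is below 0 in all 3 fractions; Piwil4 was not tested in chromatoid bodies.

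Between the cell types, most members were lower in round spermatids than in spermatocytes. By the nuclear staining that the paper reports, neither cell fraction was pure. The part of carried-over cells in the stage differences was not tested. In control animals 8 of the 10 members were lower in round spermatids, 1 (Gtsf1) was higher and Piwil4 did not pass (log2 fold change -0.24, SE 0.45), against 34.2% of everything tested lower and 37.5% higher. Of the 8, Piwil1, Piwil2, Mov10l1, Pld6, Pnldc1 and Gpat2 were also lower by a log2 of at least 1.5, as 14.9% of everything tested was. The members' median log2 fold change was -1.69, against 0.06 over everything tested. With scaling by library size only, the median of everything tested was -0.48, the share of higher calls among all calls went from 52.3% to 31.9%, and the same counts of 8 lower and 1 higher were found, beside 49.8% and 23.4% of everything tested. In control round spermatids the summed late spermatid markers were 26450 to 34889 CPM, against 4007 to 8337 CPM in control spermatocytes. In the same comparison 10 of 10 late and 10 of 10 round spermatid markers, 3 of 4 erythroid and 3 of 6 macrophage markers were higher, and 7 of 10 spermatocyte, 8 of 8 Sertoli cell and 6 of 6 Leydig cell markers were lower. Going the other way within their lists, 1 erythroid and 1 macrophage marker were lower and 1 spermatocyte marker was higher. Of 8 spermatogonial markers, 1 was lower. The part of these markers in the stage differences was not tested.

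Piwil1 fell by the most in control, with a log2 fold change of -3.24 (SE 0.23, edgeR adjusted p = 7.6e-07), to 10.6% of its level in spermatocytes. Pld6 followed at -2.28 (SE 0.14), or 20.6%. Pnldc1 (-1.99, SE 0.18), Piwil2 (-1.98, SE 0.18), Gpat2 (-1.71, SE 0.16) and Mov10l1 (-1.66, SE 0.16) lay between 25.2% and 31.6% of their spermatocyte levels. Henmt1 (-0.88, SE 0.09) and Asz1 (-0.85, SE 0.12) fell the least, to 54.2% and 55.5%. Gtsf1 went the other way, to 210% of its spermatocyte level (1.07, SE 0.12, edgeR adjusted p = 1.1e-05), and to 0.54 on the log2 scale with library size only (adjusted p = 0.00024).

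In Smg6-cKO animals, the 8 members that were lower in control were lower here too, and no member was higher by edgeR or by DESeq2, nor at an unadjusted p under 0.05. Of everything tested, 25.3% was lower and 22.8% higher by edgeR, and 28% was higher by DESeq2. Piwil1 (-2.66, SE 0.23), Pld6 (-2.09, SE 0.13) and Gpat2 (-1.63, SE 0.16) were also past a log2 of 1.5, as 3.48% of everything tested was on the lower side. The members' median was -0.98, against 0.05 over everything tested. Pnldc1 stood at 54.1% of its spermatocyte level and Mov10l1 at 47.4%, beside 25.2% and 31.6% in control. Gtsf1 was at 104% (log2 fold change 0.06, SE 0.12, edgeR adjusted p = 0.70), and its direction turned to -0.04 without cKO spermatocyte replicate 3. Between these cKO libraries 8 of 10 spermatocyte and 5 of 6 Leydig cell markers were lower, and 7 of 10 round spermatid, 6 of 10 late spermatid, 6 of 6 macrophage and 4 of 4 erythroid markers higher, and their part in the members' differences was not tested.

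**Figure D4:**
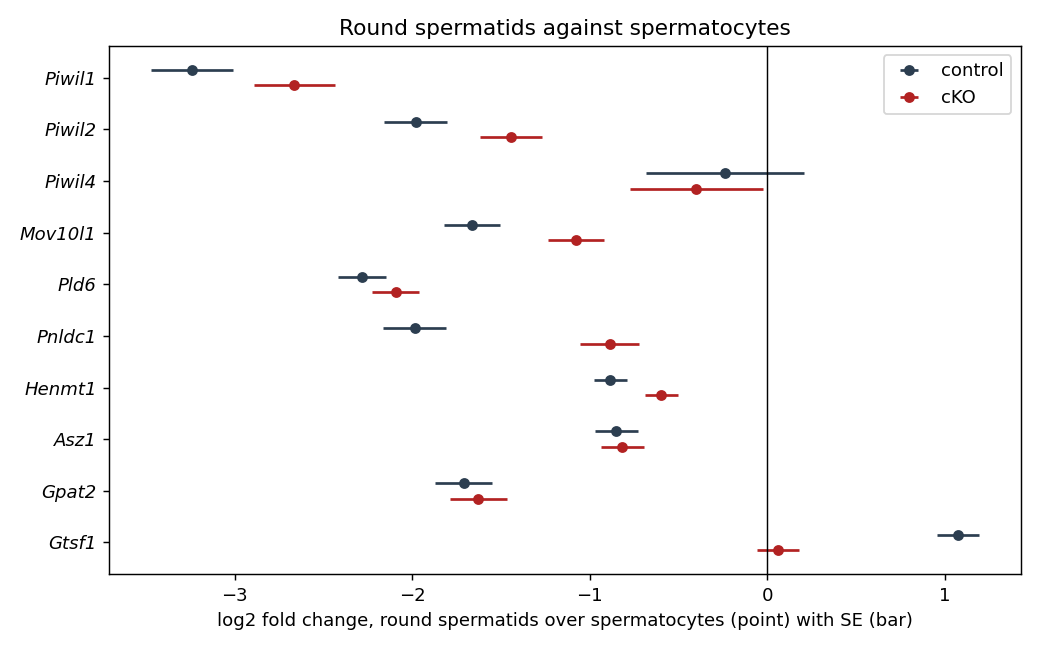
log2 fold change of round spermatids over spermatocytes (horizontal axis, bars are SE) for each member in control (dark) and cKO (red), from the fit over 12 libraries. Gtsf1 is at 1.07 in control and 0.06 in cKO, and Pnldc1 at -1.99 and -0.89.

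Whether the stage difference itself depended on genotype was tested as an interaction, the cKO stage difference less the control one. It passed for 2 of the 10 members, Pnldc1 on the higher side and Gtsf1 on the lower side, against 19.4% and 21.3% of everything tested. For Gtsf1 the interaction was -1.01 (SE 0.17, edgeR adjusted p = 0.0013) and for Pnldc1 1.10 (SE 0.24, edgeR adjusted p = 0.0046). Both passed with each of the 12 libraries left out in turn, within -1.13 to -0.93 and 0.86 to 1.24. With scaling by library size only, the median of everything tested moved from -0.12 to 0.52 and the higher share of all calls from 47.6% to 93.6%. The count on the higher side was then 8, beside 41.8% of everything tested, while Gtsf1 stayed lower (-0.37, adjusted p = 0.036). Mov10l1 (0.58, SE 0.22, edgeR adjusted p = 0.052), Piwil1 (0.58, SE 0.30), Piwil2 (0.54, SE 0.24) and Henmt1 (0.29, SE 0.13) had positive interactions that did not pass. Piwil2 passed by edgeR with the replicate number as a block (adjusted p = 0.025) and Mov10l1 by edgeR with no count filter (0.047). By DESeq2, Mov10l1 (adjusted p = 0.023) and Henmt1 (0.046) passed. The count higher was 3 without cKO round spermatid replicate 2 (20.8% of everything tested), and 2 without cKO spermatocyte replicate 1, control spermatocyte replicate 1, cKO round spermatid replicate 3 or control round spermatid replicate 1 (17.1% to 22%).

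To compare members with each other, transcript counts were divided by transcript length, summed per gene and scaled to the same total in every library. In control spermatocytes Piwil1 (546 ± 83.2, SD, n = 3) and Gtsf1 (481 ± 49.1) were the highest on this length-scaled level, and they overlapped. Pld6 (131 ± 18.7) came next, above Mov10l1 (99.96 ± 12.9) in every library. Mov10l1, Piwil2 (89.6 ± 11.5), Gpat2 (69.0 ± 11.9) and Henmt1 (60.6 ± 1.71) each overlapped the next in order, and Asz1 (47.3 ± 6.49) was below Henmt1 in every library. Pnldc1 (14.8 ± 1.53) and Piwil4 (0.258 ± 0.0572) were the lowest and clearly apart. In control round spermatids Gtsf1 led alone at 648 ± 25.0, Piwil1 had 36.9 ± 9.33, and the 6 members from Henmt1 (20.5 ± 1.01) to Gpat2 (13.5 ± 1.56) each overlapped the next in order. Pnldc1 (2.38 ± 0.0636) and Piwil4 (0.140 ± 0.0697) were again last. In cKO round spermatids the order began with Gtsf1 (425 ± 24.9), Piwil1 (106 ± 35.1) and Mov10l1 (66.1 ± 16.3). The order depended on the length used: with gene counts over the union of exons, 30 of 60 ranks changed. On that scale, in CPM by library size per kb, Piwil1 (231 ± 33.2) and Gtsf1 (151 ± 16.6) were apart in control spermatocytes, and Piwil2 (18.7 ± 4.95) and Mov10l1 (18.5 ± 4.08) were level behind Gtsf1 and Piwil1 in cKO round spermatids. In the chromatoid bodies Piwil1 ranked first in both genotypes, but its length-scaled level ranged from 11.8 to 113 between the control libraries and from 12.2 to 48.9 between the cKO libraries. This spread belongs to the transcript-based scale, since Piwil1 spanned 196 to 285 CPM over the same control libraries and had 59.8 ± 16.3 CPM per kb of exon (SD, n = 4).

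**Figure D5:**
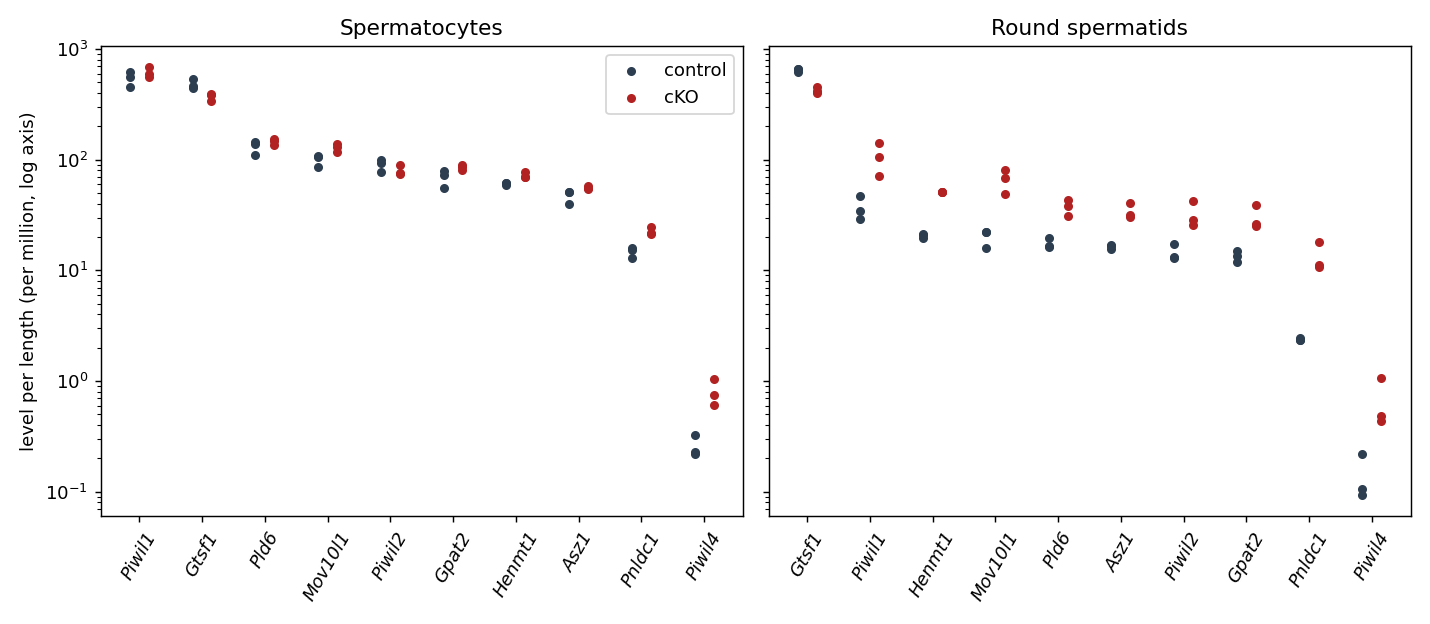
Length-scaled level of each member (vertical log axis, scaled to a common total per library) in control (dark) and cKO (red) libraries of spermatocytes and round spermatids, members ordered by the control mean. Piwil1 and Gtsf1 lead in spermatocytes, Gtsf1 alone leads in round spermatids, and Pnldc1 and Piwil4 are last in both.

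At the transcript level, 34 transcripts of 9 members were tested in spermatocytes and in round spermatids and 31 in chromatoid bodies; no Piwil4 transcript passed the count filter. In round spermatids 21 of the 34 were higher in cKO and 9 lower, against 38.9% and 36% of all transcripts tested. The 9 lower were the 9 annotated Gtsf1 transcripts, whose log2 fold changes lay between -1.31 (Gtsf1-206) and -1.29 (Gtsf1-207). The transcript with the largest fold change was Pnldc1-201, at 488 ± 134 normalized counts in cKO and 141 ± 6.15 in control (SD, n = 3, log2 fold change 1.78, SE 0.20, edgeR adjusted p = 0.00015). The Gtsf1 transcripts share exons, so their values are not independent measurements. Likewise Mov10l1-201 and Mov10l1-203 had identical estimated counts, at a log2 fold change of 1.03. Transcripts annotated as targets of nonsense-mediated decay were 2 among the 34, both higher in cKO round spermatids and both named after their values were seen. They were Asz1-203 (0.41, SE 0.13, edgeR adjusted p = 0.023) and Henmt1-204 (0.63, SE 0.09, edgeR adjusted p = 0.00048). The coding transcripts Asz1-201 and Henmt1-201 had 0.31 and 0.59. The other Asz1 transcripts ranged from 0.25 to 0.56 and the other Henmt1 transcripts from 0.57 to 1.06. Asz1-203 and Henmt1-204 thus lay within the range of their gene. Reads matching several transcripts were shared, so isoforms of these genes are not independent either. Neither Asz1-203 nor Henmt1-204 passed in spermatocytes or chromatoid bodies. The count of 21 was 13 without control replicate 1, beside 35.7% of all transcripts tested.

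In chromatoid bodies the 9 Gtsf1 transcripts were again the ones lower, with log2 fold changes from -1.22 to -1.02, and 2 transcripts were higher, Gpat2-201 and Mov10l1-205, against 18.1% and 17.8% of all transcripts tested. With 1 library removed at a time, the count of 2 changed in all 7 cases: it was 0 without 1 cKO library, 3 without another and 1 without any of the other 5, where 11.8% to 16.1% of all transcripts were higher. It was 0 with scaling by library size only, where the share over all transcripts was 2.48%. In spermatocytes 5 transcripts were higher (4 of Mov10l1 and Pnldc1-201) and 0 lower by edgeR, against 16.1% and 12.5%. Leaving out any library brought these 5 to 1 or 2, beside 8.03% to 14.1% of all transcripts, and scaling by library size only gave 2 higher and 9 lower, beside 15.4% and 12.7%.

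The other piRNA pathway genes, 20 of which were in the tables, did not move as 1 block. In cKO round spermatids 11 were higher and 7 lower, against the 38% and 33.3% of everything tested, with a median log2 fold change of 0.45, compared with 0.52 for the members. In spermatocytes 4 were higher and 2 lower, beside 13.3% and 13% of everything tested, and in chromatoid bodies 1 was higher and 5 lower, beside 15.4% and 17.7%. In control animals 10 of the 20 were lower and 7 higher in round spermatids than in spermatocytes (34.2% and 37.5% of everything tested), and in cKO animals 12 were lower and 3 higher (25.3% and 22.8%). With scaling by library size only, 13 were higher and 4 lower in cKO round spermatids, where 55.7% and 18% of everything tested were called. Between stages 14 were lower and 3 higher in control (49.8% and 23.4%), and 11 lower and 5 higher in cKO (20.9% and 27.9%). The genotype and stage comparisons share control libraries, so their values are given side by side only.

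The 4 with the largest changes in round spermatids were Dnmt3l, Gtsf1l, Tdrd5 and Mov10. In round spermatids Dnmt3l, a cofactor of DNA methylation at transposons, stood at 3.05 to 7.57 CPM in cKO libraries and 26.1 to 26.6 CPM in controls (log2 fold change -2.48, SE 0.32, edgeR adjusted p = 0.00020), and was also lower in spermatocytes (-2.03, SE 0.30) and chromatoid bodies (-1.60, SE 0.30). Gtsf1l, a paralogue of Gtsf1, stood at 99.9 to 119 CPM against 406 to 423 CPM (-1.96, SE 0.08, edgeR adjusted p = 5.6e-07). Like Gtsf1 it was lower in chromatoid bodies (-1.07, SE 0.26) and higher in round spermatids than in spermatocytes in control (1.93, SE 0.23), and it was lower in spermatocytes as well (-1.06, SE 0.28). Tdrd5, a Tudor protein of piRNA precursor selection, stood at 42.0 to 57.1 CPM against 14.1 to 20.8 CPM (1.60, SE 0.18, edgeR adjusted p = 8.8e-05), after a stage fall of -3.36 (SE 0.18) in control. Mov10, a paralogue of Mov10l1, stood at 18.02 to 22.5 CPM against 7.67 to 8.23 CPM (1.31, SE 0.13, edgeR adjusted p = 5.0e-05) and did not pass in spermatocytes (-0.07, SE 0.21). Mybl1, which encodes A-MYB, was higher in cKO round spermatids (0.73, SE 0.08, edgeR adjusted p = 7.4e-05) and had -0.03 (SE 0.08) in spermatocytes; it was singled out for its role, outside the size rule.

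Over the 12 spermatocyte and round spermatid libraries, the 5 genes whose log2 CPM followed Piwil1 most closely, among 13060 genes with a mean of at least 100 normalized counts, were Gm5878 (Pearson r = 0.998), D130017N08Rik (0.997), Tmem106c (0.997), 4921525O09Rik (0.997) and Gm21269 (0.997). Of the other members, Pld6 had r = 0.995 and ranked 9th from the top, Piwil2 0.987, Gpat2 0.985 and Asz1 0.963, while Mov10l1 had 0.921, Henmt1 0.905, Pnldc1 0.846 and Gtsf1 -0.65. The libraries fall into the 2 cell types, so these values describe mostly the difference between spermatocytes and round spermatids.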

How the data were processed

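Per the labels and the study's methods, the authors trimmed reads with cutadapt 2.8, mapped them to GRCm38 with STAR 2.7.1a and deposited, per library, TEtranscripts counts for 24411 genes and 1146 transposable elements. The authors also deposited estimated counts per transcript, fractional values made with featureCounts 2.0.1. These versions are from the submitters' processing notes, and the paper's methods name other versions of STAR and featureCounts. The deposited counts are raw and not normalized. Transcript tables gave the lengths used for length-scaled levels.

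From these counts, edgeR 4.0.16 in R 4.3.3 (TMM scaling and the two-sided quasi-likelihood F test, p-values adjusted by Benjamini-Hochberg over all genes and elements) was run on features with at least 10 counts in at least 3 libraries. Estimated transcript counts were rounded and needed 20 in 3 libraries. Genotypes were compared within each fraction, and stages and the interaction in 1 fit over the 12 spermatocyte and round spermatid libraries, so a stage fold uses a joint scaling and the printed CPM a scaling within each fraction. DESeq2 1.42.0, library size, filter, summed transcripts, left-out libraries and a replicate block were alternatives. The fits were checked on simulated data. Libraries of a group differed beyond sampling noise (chi-square over its degrees of freedom, 9.89 to 82.3).

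The members and gene lists were chosen with earlier results of these data known. Named were the 10 members, the member transcripts with the largest changes at a mean of at least 100 normalized counts, the 4 other pathway genes with the largest changes in round spermatids and the 5 genes most correlated with Piwil1. Small RNA tables were not used.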

Additional observations from a re-analysis of the deposited data

Results flagged for a closer look

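The effect of genotype differed between spermatocytes and round spermatids for 2 of the 10 members, 1 on each side, by the interaction term of the edgeR fit over 12 libraries. Of everything tested, 19.4% passed on the higher side and 21.3% on the lower side, so the members passed no more often than the rest. The interaction was -1.01 on the log2 scale for Gtsf1 (adjusted p = 0.0013), whose genotype difference was -1.32 in round spermatids and -0.42, not past the threshold, in spermatocytes. It was 1.10 for Pnldc1 (adjusted p = 0.0046), with genotype differences of 1.76 and 0.55. Of the named pathway genes it also passed for Gtsf1l (-1.01), Mov10 (1.27) and Tdrd5 (1.04). These were named for the size of their genotype difference in round spermatids, which is 1 term of the interaction, so their values are a description. With scaling by library size only, the interaction was -0.37 for Gtsf1 and 1.75 for Pnldc1, and 41.8% of everything tested was on the higher side and 2.87% on the lower side. Of the 20 pathway genes 12 were then higher and 0 lower by edgeR (14 and 0 at an unadjusted p under 0.05), against 4 higher and 6 lower with TMM scaling, and Gtsf1l was no longer called. Markers of several cell types passed the same interaction. On the lower side were 9 of 10 round spermatid and 6 of 10 late spermatid markers, and on the higher side 8 of 8 Sertoli cell, 4 of 4 erythroid, 4 of 6 macrophage, 5 of 10 spermatocyte and 2 of 8 spermatogonial markers, with 2 spermatocyte and 1 spermatogonial markers lower. None of 6 Leydig cell markers passed by edgeR, with 4 at an unadjusted p under 0.05. The part of these markers in the members' differences was not tested. No member had a library standing apart from the other 3 among the 4 control chromatoid body libraries, in 10 checks, where chance flags about 1 in 20 groups.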

How the results depend on the processing

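Of 306 fold changes of members under another setting with all libraries, 281 kept their direction and side of the threshold, 4 lost the call, 19 gained it and 2 turned direction, both with library size only and neither called: Henmt1 in chromatoid bodies (-0.086) and the interaction of Piwil4 (0.47). Of 543 with a library left out, 497 kept both, 22 lost the call, 12 gained it and 12 turned. Those that turned ranged from -0.072 to 0.12 for the interaction of Asz1, -0.12 to 0.22 for Gpat2 and -0.67 to 0.17 for Piwil4, from -0.038 to 0.15 for Gtsf1 between stages in cKO and from -0.18 to 0.051 for Pld6 in chromatoid bodies. In spermatocytes 1 member was lower with library size only, no count filter, DESeq2 and the replicate block. There 12.9%, 10.5%, 17.2% and 10.8% of everything tested was lower, in that order. Interactions on the higher side were 8 with library size only, 2 with no filter, 3 with DESeq2 and 2 with the replicate block. The shares of everything tested on that side were 41.8%, 15.8%, 22.4% and 18%, in the same order. With library size only, spermatocyte transcripts were 2 higher and 9 lower, and chromatoid body transcripts 0 higher, beside 15.4%, 12.7% and 2.48% of all transcripts. With a library left out, members in spermatocytes were 0 to 2 higher and 0 to 1 lower, beside 6.03% to 11.8% and 4.42% to 12.1% of everything tested. Members higher were 3 to 9 in round spermatids (33.9% to 37.9%) and 1 to 3 in the interaction (14.8% to 22%). Transcripts in spermatocytes were 1 to 2 higher and 0 to 2 lower, beside 8.03% to 14.1% and 4.34% to 10.6% of all transcripts. Transcripts higher were 13 to 23 in round spermatids (34.9% to 37.7%) and 0 to 3 in chromatoid bodies (11.8% to 16.1%). Some same-numbered libraries deviated together and others did not (correlations of deviations from group means, -0.306 to 0.599), so the numbers were not taken to pair the samples. The replicate block gave 6 members higher in round spermatids, where Pld6 lost its call (adjusted p = 0.058), and 2 higher in spermatocytes, where Mov10l1 lost its call (0.059) and Gtsf1 gained one (0.038). Of everything tested, 35.7% was higher in round spermatids and 9.63% in spermatocytes under that block. Under the block, and also by DESeq2, 1 member rather than 2 was past a log2 of 1.5 in round spermatids. No paired analysis was possible for chromatoid bodies because the numbers of their columns do not match the sample labels. Ranks per length were the same for 30 of 60 with gene counts over the union of exons. Depth limits Piwil4, at 1 to 69 counts.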
